A study of Nicotiana tabacum with 8 samples.

Results

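The transcripts described here are 3 unigenes of tobacco (Nicotiana tabacum) leaves that the study names after dehydration-responsive element-binding (DREB) proteins: DREB2A (c73886_g1), DREB2H (c71056_g1) and DREB3 (c71296_g1). They were taken by their identifiers from a table of 135146 unigenes, which are transcripts assembled from the RNA-seq reads without a genome, and all 3 belonged to the 31884 unigenes that passed the filter on low values. The name DREB2H for c71056_g1 came from the study's list of qPCR primers and stands in the legend of its qPCR figure. Gene tables of the study instead give that name to c71056_g2, a second unigene of the same assembly component. The study's expression table leaves c71056_g1 unnamed. The names rest on similarity to known proteins.

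Plants of 2 cultivars, CB-1 and K326, were sampled at the six-leaf stage in 4 groups. CB-1 control (CC) and K326 control (KC) plants stayed in a growth chamber set to 28 °C by day and 24 °C by night. CB-1 cold (CT) and K326 cold (KT) plants were moved to 4 °C for 1 day. No transgene or mutation is named for either cultivar, each group held 2 libraries, and each sample combined the top leaves of 6 plants, so that the spread between libraries is one between pools. No marker genes of leaf were checked, because the names used here cover none.

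DREB proteins are transcription factors of the AP2/ERF family that bind the dehydration-responsive element, also known as the C-repeat, in the promoters of stress genes. In Arabidopsis the DREB1 (CBF) branch is known for its rapid response to cold, whereas the DREB2 branch is best known from drought, salt and heat. Arabidopsis DREB2A is also controlled after translation, since its protein is quickly degraded in unstressed cells, so that transcript levels describe only part of its activity. DREB3 is the name of a further Arabidopsis member of the same subfamily.

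The only sequences that tie the names DREB2A and DREB2H to single unigenes are the primers designed for their qPCR assays. They define what the study measured by qPCR under these names, whereas the levels given here are RNA-seq estimates. The primers are written 5′ to 3′ in lower case, with no part set apart in capitals. All are 20 bases long, and their GC content was 55.0% and 60.0% for DREB2A and 45.0% and 55.0% for DREB2H, forward and reverse.
DREB2A c73886_g1 forward: gttgaagtcttcctgccgtc
DREB2A c73886_g1 reverse: gactccactggatacctcgg
DREB2H c71056_g1 forward: aaagaaggcgcaatggatgt
DREB2H c71056_g1 reverse: tacccactttccccatgtcc

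Levels are given as the deposited log2(value + 1), where the value is the abundance estimated by RSEM, and as the value itself after turning the log back. The table has no read counts, so the number of reads behind each level is unknown. A value of exactly 0 may be an absent transcript or a failed estimate. Read totals per library are given in the paper, lowest for CT1 and highest for CT2. The number of unigenes above 0 ran from 41878 in CC2 to 51331 in CT1. Across the tested unigenes the control libraries CC1 and KC2 resembled each other more (Pearson's r = 0.961) than either resembled its replicate (0.935 for CC1 with CC2 and 0.913 for KC1 with KC2), so that warm levels are those of libraries labelled CB-1 or K326. The median log2 change of all tested unigenes under cold was −0.20 for CB-1 and −0.31 for K326, and became 0.00 in both when each library was scaled by its median ratio. In leaves measured as a whole, more RNA per cell cannot be told apart from more cells that hold the transcript.

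DREB2A, which in Arabidopsis activates drought and heat genes, was above 0 in the 4 cold libraries alone. Its log2 level was 0 in CC1, CC2, KC1 and KC2, and 9.13% of tested unigenes were likewise at 0 in every control. It reached 1.98 in CT1 and 3.27 in CT2, which are values of 2.93 and 8.62. In K326 it reached 4.35 in KT1 and 4.16 in KT2, which are values of 19.4 and 16.8. Every cold library thus lay above every control library, and both K326 cold libraries lay above both CB-1 cold libraries. The K326 replicates were much closer together (0.19 apart on the log2 scale) than those of CB-1 (1.29 apart).

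DREB2H, another member of the DREB2 branch, behaved in the same way. It was likewise at 0 in CC1, CC2, KC1 and KC2. Its log2 level was 2.77 in CT1 and 4.10 in CT2 (values of 5.81 and 16.2), and 5.66 in KT1 and 4.84 in KT2 (values of 49.6 and 27.7). The cold libraries stood in the order CT1, CT2, KT2 and KT1 from low to high, which is also their order for DREB2A. Replicates lay 1.34 apart in CT and 0.82 apart in KT on the log2 scale.

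**Figure D1:**
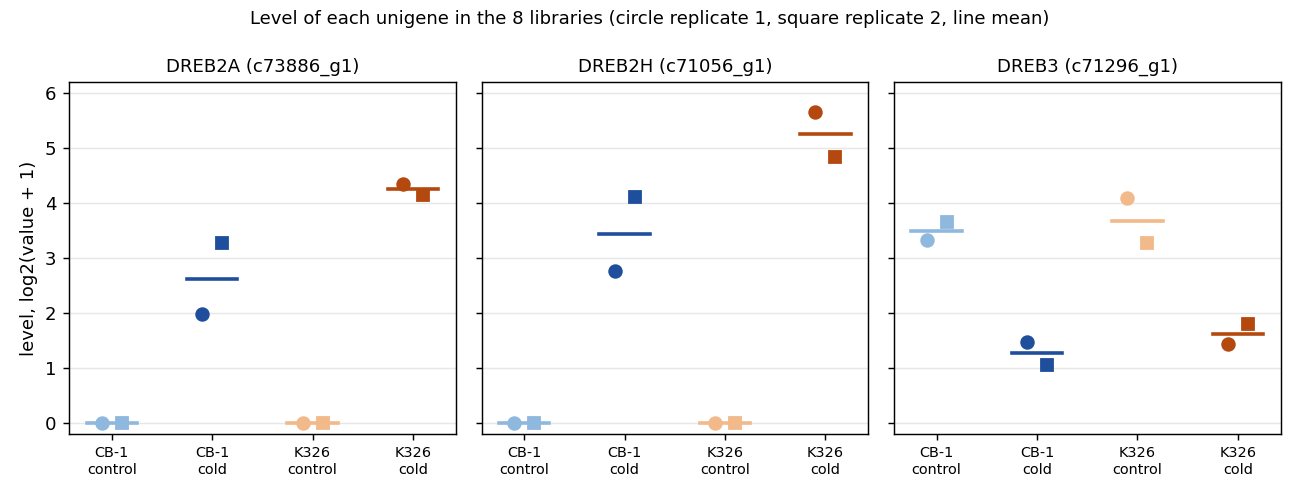
Level of DREB2A, DREB2H and DREB3 as log2(value + 1) on the vertical axis in each of the 4 groups, with a circle for replicate 1, a square for replicate 2 and a line at the mean of the 2 libraries. DREB2A and DREB2H sit at 0 in the 4 control libraries and between 1.98 and 5.66 in the cold, while DREB3 falls from between 3.27 and 4.09 to between 1.05 and 1.81.

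Against control groups at 0 no fold change can be given. On the log2(value + 1) scale the cold minus control difference equals the cold mean, which for DREB2A was 2.62 ± 0.91 in CT and 4.25 ± 0.13 in KT, and for DREB2H 3.44 ± 0.94 in CT and 5.25 ± 0.58 in KT (SD, n = 2). The size of these differences is set by the pseudocount: with 0.1 in place of 1 they were 5.69 in CB-1 and 7.50 in K326 for DREB2A, and 6.62 and 8.54 for DREB2H, with every call kept. In CB-1 the rise passed the threshold for DREB2A (standard error 0.40, adjusted p = 0.00446) and DREB2H (standard error 0.47, adjusted p = 0.00313; limma, Benjamini-Hochberg adjustment over all tested unigenes). A unigene was called when this adjusted p was under 0.05 and the log2 difference over 1 in size, and by that rule 15.5% of tested unigenes rose in CB-1 (32.9% changed in either direction). In K326, where 14.7% rose and 34.2% changed in either direction, the adjusted p-values from limma were 0.000991 for DREB2A and 0.000852 for DREB2H. The rise of DREB2H ranked 92 from the top among the 31884 tested unigenes in K326 and 456 in CB-1, and that of DREB2A ranked 234 and 1147.

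These calls rest on a spread shared by all 8 libraries and moderated between unigenes, and the control groups, at 0, add no spread for these unigenes. With only the 2 groups compared and no moderation, the adjusted p in CB-1 was 0.145 for DREB2A and 0.117 for DREB2H, and in K326 0.0251 and 0.0586. Over both cultivars, an exact two-sided permutation test of the 4 cold against the 4 control libraries gave p = 0.0286 for each. It is the smallest p that test allows, with labels exchanged over all 8 libraries regardless of cultivar. Of all tested unigenes, 20.6% had the cold libraries all above the control libraries, and 5.71% were at 0 in the 4 control libraries and above 0 in the 4 cold ones.

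Because both transcripts were listed at 0 in the warm, the question whether K326 responded more strongly than CB-1 comes down to the cold libraries. The mean value was 3.13 times as high in KT as in CT for DREB2A and 3.51 times as high for DREB2H. On the log2(value + 1) scale the KT mean was higher by 1.63 for DREB2A (95% interval 0.65 to 2.61, unadjusted p = 0.00636, adjusted p = 0.150) and by 1.82 for DREB2H (95% interval 0.67 to 2.96, unadjusted p = 0.00806, adjusted p = 0.166; limma). Neither was called, whereas 0.405% of tested unigenes were in this comparison, 0.248% higher and 0.157% lower in K326. The intervals of DREB2A and DREB2H draw on a spread shared with the control groups, which were at 0 and added none.

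Both differences were larger than the gaps between replicates, but their size depended on CT1. Without CT1 they were 0.99 and 1.15, and without CT2 they were 2.28 and 2.48, each with a single CB-1 cold library left. CT1 was also the library with the most unigenes above 0 and, in the paper's totals, with the fewest reads. Its part in the result was not tested. In a fit of the cold libraries alone the standard errors were 0.54 for DREB2A and 0.645 for DREB2H, against 0.40 and 0.47 in the main fit. The unadjusted p-values from limma were then 0.057 for DREB2A and 0.0671 for DREB2H, and the adjusted ones 0.474 and 0.501. As a difference between the cold responses of the cultivars, the same 1.63 and 1.82 had standard errors of 0.57 and 0.67 and adjusted p-values of 0.458 and 0.479 (interaction contrast in limma). That contrast called 0% of the tested unigenes after adjustment, with 2934 at an unadjusted p under 0.05, and without moderation it called 70 higher and 73 lower in K326.

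Both K326 cold libraries exceeded both CB-1 cold libraries in 19.0% of all tested unigenes. Among the 1821 unigenes with the same off and on pattern between control and cold as DREB2A and DREB2H, the share was 21.8%, and in 25.8% both K326 libraries were lower instead. The full order CT1, CT2, KT2, KT1 was shared by 9.23% of the 1821.

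**Figure D2:**
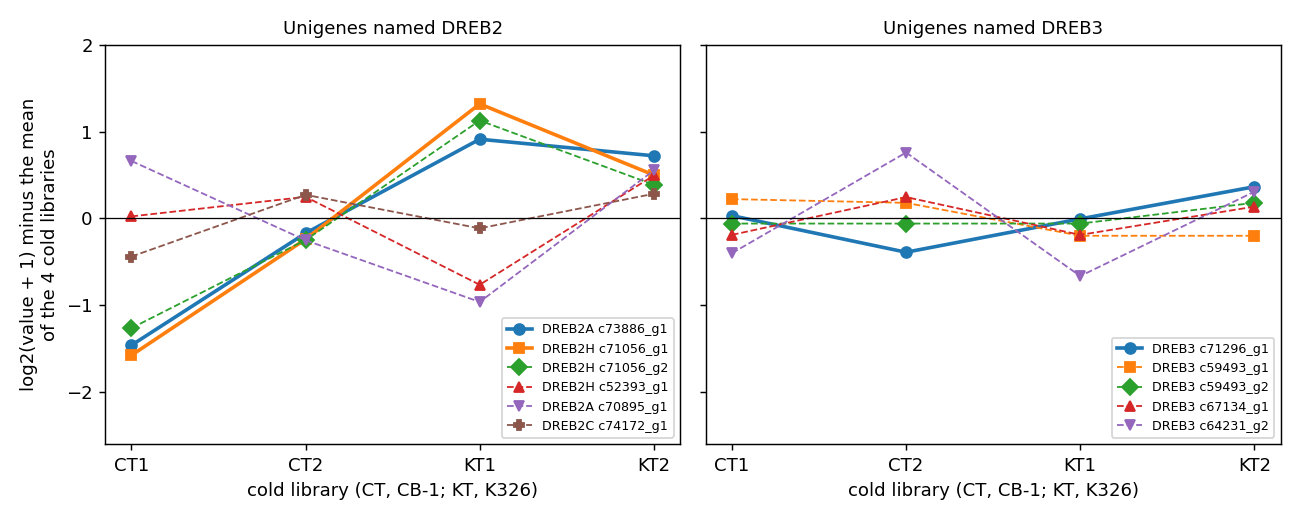
Log2(value + 1) in the 4 cold libraries (horizontal axis) minus the unigene's own mean over them (vertical axis), for the 6 unigenes named DREB2 on the left and the 5 named DREB3 on the right, with thick lines for DREB2A c73886_g1, DREB2H c71056_g1 and DREB3 c71296_g1. DREB2A c73886_g1, DREB2H c71056_g1 and c71056_g2 run from a low CT1 to a high KT1, whereas the cold libraries of the cultivars overlap in the other DREB2 unigenes and in DREB3 c71296_g1.

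DREB3 moved in the opposite direction. Its log2 level was 3.33 in CC1, 3.66 in CC2, 4.09 in KC1 and 3.27 in KC2, which are values of 9.04, 11.7, 16.0 and 8.62. In the cold it was 1.48 in CT1, 1.05 in CT2, 1.44 in KT1 and 1.81 in KT2, which are values of 1.78, 1.08, 1.71 and 2.50. The 4 cold libraries lay below the 4 control libraries without overlap, and the transcript remained detectable in each of them.

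For DREB3 the log2 mean was 3.49 ± 0.24 in CC and 1.26 ± 0.30 in CT, and in K326 it was 3.68 ± 0.58 in KC and 1.62 ± 0.26 in KT (SD, n = 2). The fall was called in CB-1 (log2 difference −2.23, 95% interval −3.04 to −1.43, adjusted p = 0.00400) and in K326 (−2.05, 95% interval −2.86 to −1.25, adjusted p = 0.00494; limma), where 17.4% and 19.5% of tested unigenes fell. Relative to the median change of all unigenes, the differences were −2.03 and −1.75. As mean values without the pseudocount, control was 7.25 times cold in CB-1 and 5.84 times in K326.

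Without moderation and with only the 2 groups compared, the adjusted p of DREB3 was 0.0773 in CB-1 and 0.123 in K326. The exact two-sided permutation test of 4 cold against 4 control libraries gave p = 0.0286, its smallest possible value, and 33.3% of tested unigenes had all cold libraries below all control libraries.

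No difference between the cultivars was detectable for DREB3. The control groups differed by 0.18 (K326 minus CB-1, 95% interval −0.62 to 0.99), less than the 0.82 between KC1 and KC2. CC1 and KC2 were closer to each other than to their own replicates, as in 36.1% of the tested unigenes. The cold groups differed by 0.36 (95% interval −0.45 to 1.16, adjusted p = 0.758, limma), less than the 0.42 between CT1 and CT2, and CT1 lay above KT1. The difference of the cold responses was 0.18 (95% interval −0.96 to 1.32, adjusted p = 0.963, limma), an interval that also holds differences of 1 log2 unit.

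The study names 6 unigenes DREB2, including c73886_g1 and c71056_g1, and 5 rose past the threshold in each cultivar (limma, adjusted over all unigenes). Of all tested unigenes, 15.5% rose in CB-1 and 14.7% in K326. The median log2 difference was 2.83 in CB-1 and 4.19 in K326, against −0.20 and −0.31 over all tested unigenes. For the 4 unigenes other than c73886_g1 and c71056_g1 it was 2.83 and 3.65. The median KT minus CT difference was 0.84 over the 6 and −0.05 over these 4. The list was drawn up with earlier results of these libraries known, so the counts are not independent evidence of direction. With a pseudocount of 0.1 all 6 were called in both cultivars, where 5559 (CB-1) and 5360 (K326) of the 31884 tested unigenes rose. With only the 2 groups compared and no moderation, 0 of the 6 were called in CB-1 and 1 in K326. Over all tested unigenes that setting called 926 as higher in the cold in CB-1, against 4927 in the main fit. In K326 it called 937 as higher, against 4688.

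Among the other DREB2 unigenes, c71056_g2 followed c71056_g1 closely, with 0 in the control libraries. Its cold levels were 2.20 in CT1, 3.21 in CT2, 4.59 in KT1 and 3.85 in KT2. Reads common to both unigenes of this component may have been divided between them by the estimation, so the level of either alone is uncertain. DREB2C (c74172_g1), whose Arabidopsis namesake is known from heat responses, was at 0 in the warm and at 2.61, 3.32, 2.93 and 3.33 in CT1, CT2, KT1 and KT2. The second DREB2H unigene outside this component, c52393_g1, was at 1.18 in CC1 and at 0 in the other control libraries, and at 4.32, 4.55, 3.54 and 4.79 in the 4 cold libraries in that order. For these 2 the cultivars' cold libraries overlapped, and the KT minus CT difference was 0.17 (95% interval −0.51 to 0.85) for c74172_g1 and −0.27 (95% interval −1.53 to 0.99) for c52393_g1.

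The exception was c70895_g1, a second unigene named DREB2A. It too was at 0 in the control libraries, but its cold levels were only 1.96 in CT1, 1.04 in CT2, 0.33 in KT1 and 1.85 in KT2. Neither its CB-1 difference of 1.50 (adjusted p = 0.0675) nor its K326 difference of 1.09 (adjusted p = 0.147) was called by limma. The 2 unigenes with the name DREB2A therefore ranked the cold libraries differently, with CT1 lowest for c73886_g1 and KT1 lowest for c70895_g1.

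**Figure D3:**
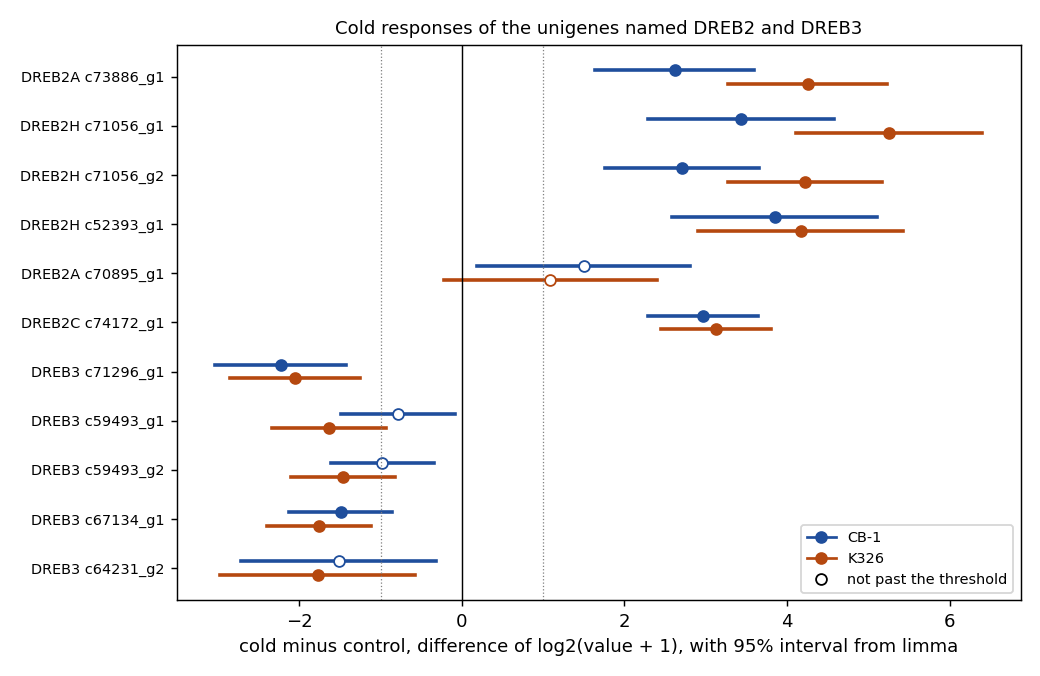
Cold minus control difference of log2(value + 1) on the horizontal axis, with 95% intervals from limma, for each unigene named DREB2 or DREB3, in blue for CB-1 and orange for K326. Filled points passed the threshold, open points did not, and dotted lines mark a difference of 1, so that 5 of 6 DREB2 unigenes are filled on the right in both cultivars and the DREB3 unigenes all lie on the left.

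All 5 unigenes named DREB3 had lower means in the cold in both cultivars. In K326, where 19.5% of tested unigenes fell, limma called all 5, and in CB-1, where 17.4% fell, it called 2, c71296_g1 and c67134_g1. The medians were −1.49 in CB-1 and −1.76 in K326. The other 4 had low levels, at most 2.56 in any control library on the log2 scale, so that the pseudocount compresses their changes. The count in CB-1 was 4 with a pseudocount of 0.1. It was 5 when all 4 controls formed a single group or when CC2 and KC2 were exchanged. In that order, these settings called 6579, 6209 and 6233 of the 31884 tested unigenes as lower in CB-1, against 5550 in the main fit. In K326 the count was 4 in most other settings. Among them were a pseudocount of 0.1, a looser or a stricter filter on low values, quantile normalization and median-ratio scaling. It was also 4 there without moderation in the fit of all 4 groups, and with only the 2 groups compared under moderation. The same count came without CC1, CC2, KC1, KC2 or KT1. It stayed at 5 with replicate number added to the model, with the exchange, with a single control group, or without CT1, CT2 or KT2.

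Of the DREB3 unigenes, c64231_g2 was at 2.56 and 2.16 in CC1 and CC2 and at 0.26 and 1.42 in CT1 and CT2, and its CB-1 difference of −1.51 had an adjusted p of 0.0504 (limma). In K326 it went from 2.02 and 2.50 to 0 and 0.97, a called difference of −1.77. The unigenes c59493_g1 and c59493_g2 share an assembly component, and with differences of −0.79 and −0.98 in CB-1 they stayed under the fold threshold. In K326 c59493_g1 was at 1.25 and 2.02 in KC1 and KC2 and at 0 in both cold libraries, where c59493_g2 was at 0 and 0.24. The lowest adjusted p for a difference of responses between the cultivars among the 5 was 0.625, for c59493_g1 (limma).

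**Figure D4:**
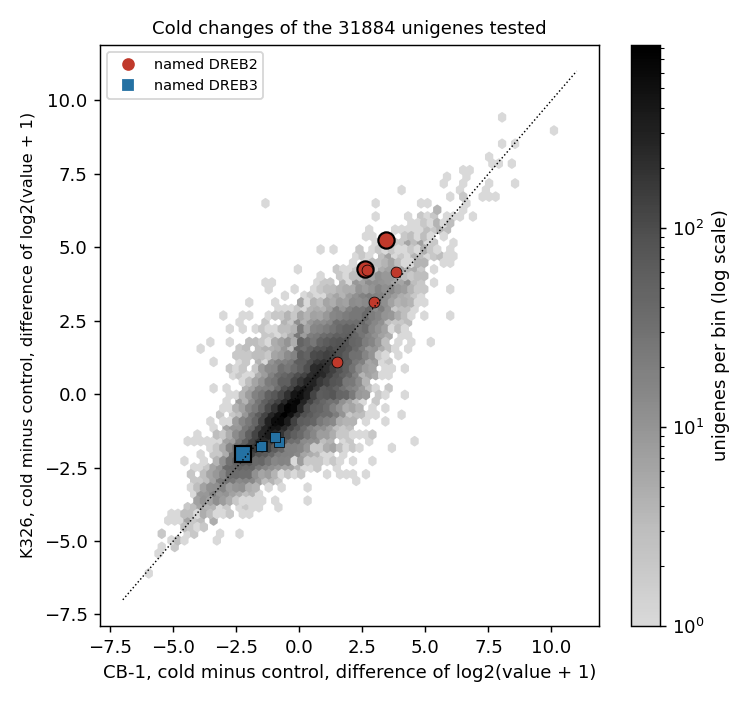
Cold minus control difference of log2(value + 1) in CB-1 (horizontal axis) and K326 (vertical axis) for the 31884 tested unigenes, with grey bins shaded by their number of unigenes on a log scale and a dotted line of equal change. Unigenes named DREB2 are circles and those named DREB3 squares, with larger symbols for c73886_g1, c71056_g1 and c71296_g1, and both large circles lie above the dotted line.

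By Pearson's correlation over the 8 libraries, the unigene most like DREB2H c71056_g1 among the 31883 others was c71056_g2 (r = 0.9998). The named unigenes most like DREB2A c73886_g1 were c71056_g1 (r = 0.997, rank 14), c71056_g2 (r = 0.996, rank 19) and the transcription factor WRKY41 (c76796_g2, r = 0.995, rank 28), and of all unigenes c45889_g1 and c5943_g1 stood first. CMTA3 (c85046_g1), whose Arabidopsis namesake CAMTA3 is a calmodulin-binding activator of CBF genes, correlated with c71056_g1 at r = 0.994. It differed in kind, since it was present in the warm at 3.73 to 3.83 and moved to between 4.45 and 4.91 in the cold. For DREB3 the nearest named unigenes were AHK3 (c85178_g2, r = 0.978), a cytokinin receptor in Arabidopsis, UPBEAT1 (c112787_g1, r = 0.961), a bHLH factor, and COR413I (c81086_g1, r = 0.957), while c73638_g2 and c73423_g1 led over all unigenes.

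With 2 separated sets of libraries such correlations are mostly fixed by the step between warm and cold. An r over 0.95 was reached with DREB2A by 1183 unigenes, with DREB2H by 1444 and with DREB3 by 2313. Between DREB3 and the DREB2 pair r was −0.882 for DREB2A and −0.900 for DREB2H over the same 8 libraries.

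The other lists are read against the 15.5% of all tested unigenes that rose in CB-1 and the 14.7% that rose in K326, and lists this short allow no more than a description. Of 7 unigenes named DREB1, the CBF branch, limma called 2 as higher in the cold for CB-1 and 3 for K326, with medians of 1.48 and 1.97. Of 7 other AP2/ERF factors, 5 rose in CB-1 and 6 in K326, with medians of 2.71 and 4.83, but most of these stand in a table of the study's most strongly changed transcription factors, so their count is not independent evidence of direction. Of the 4 unigenes CMTA3, HOS1, SIZ1 and BHLH92, most of whose Arabidopsis namesakes are known to act on CBF genes or on their activator ICE1, 2 rose in CB-1 and 3 in K326, with medians of 1.61 and 1.96. COR413 genes belong to the cold-regulated genes, and 1 of 3 rose in each cultivar, with medians of 0.51 and 0.20. No unigene of these lists fell past the threshold, and none was called between the cold libraries of the cultivars.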

How the data were processed

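RNA-seq of 8 leaf libraries was analysed from the single deposited table. The authors assembled all reads with Trinity, mapped them with bowtie, estimated abundance with RSEM and deposited it per unigene on a log2 scale, as log2(value + 1). Versions and the scaling of the value are not given in the sources used here, and the values of a library sum to between 409394 and 469248, so they are no TPM of the whole table.

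Unigenes that reached a log2 value of 1 in 2 or more libraries were tested with limma 3.58.1 in R 4.3.3, as a single model of 4 group means and a mean-variance trend, and called at an absolute difference over 1 and a Benjamini-Hochberg adjusted p under 0.05. The study names a t-test, run here as an alternative without moderation. The procedure was checked on simulated libraries. Exact permutation tests used scipy 1.17.1. Labels do not say whether the 2 libraries of a group came from separate growth rounds, so p-values measure the spread between these libraries, which may be partly technical. The unigenes and lists were chosen with earlier results of these data known. Named in addition were the DREB2 and DREB3 unigenes of the study and the closest patterns by Pearson's r, 3 of named and 2 of all unigenes. Primer sequences came from the study's primer list. RefSeq gene names could not be matched to assembly identifiers and were not used.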

Additional observations from a re-analysis of the deposited data

How the results depend on the processing

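Over 346 comparisons of a result with an alternative, 304 were taken as unchanged. For a test this meant the same direction and side of the threshold. For a count of called unigenes it meant only a number near the main one, so that 5 and 6 DREB2 calls were taken as the same. With only the 2 groups compared and no moderation, a setting chosen after seeing the data, the unchanged differences of DREB2A (2.62), DREB2H (3.44) and DREB3 (−2.23) in CB-1 and of DREB2H (5.25) and DREB3 (−2.05) in K326 were no longer called. Calls among DREB2 unigenes then numbered 0 in CB-1 and 1 in K326, and among DREB3 unigenes 0 in both. Over all tested unigenes this setting called 926 rises and 951 falls in CB-1, and 937 and 955 in K326. Its test had 2 residual degrees of freedom. DREB3 calls in CB-1 were 4 with a pseudocount of 0.1, and 5 with CC2 and KC2 exchanged or with all controls as 1 group. Over all tested unigenes, 6579, 6233 and 6209 then fell in CB-1, against 5550 in the main fit. In K326 they went from 5 to 4 in most settings. Among these were the pseudocount of 0.1, quantile normalization, median-ratio scaling, and no moderation in the fit of all 4 groups. Over all tested unigenes, 7431, 5266, 4115 and 4929 then fell in K326, against 6229 in the main fit. The causes of these changes were not tested. The exchange also turned the DREB3 difference of responses to −0.22. Its leave-one-out values ran from −0.23 (without KC2) to 0.59, and were also below 0, though close to it, without CT2 (−0.033) and KT2 (−0.008). The DREB3 control difference was negative without KC1 (−0.23, up to 0.59 otherwise). The KT minus CT difference of DREB2A ran from 0.99 (without CT1) to 2.28 (without CT2). Without one library the permutation test allows no p under 0.0571, with differences from 3.13 to 3.92 for DREB2A, from 3.91 to 4.87 for DREB2H and from −2.26 to −1.98 for DREB3. Same-numbered libraries showed little shared deviation (correlations from −0.043 to 0.044) except in CC and KC, where the correlation was −0.376. There CC1 was most like KC2 (r = 0.961) and CC2 most like KC1 (r = 0.947). A block by replicate number does not model that crossed pattern. The block changed no call of these 3 unigenes (DREB2A in CB-1: adjusted p = 0.00908 in limma). Depth limits for single unigenes could not be set, since the table holds no counts.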
